A study of Mus musculus with 20 samples.

Results

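The 7 genes described here, Dio2, Dio3, Thra, Thrb, Hr, Crym and Thrsp, handle thyroid hormone or respond to it. They were chosen by symbol, and all 7 were found among the 55487 features of a prefrontal cortex count table and the 57180 features of a hippocampal one. All 7 also passed the filter on low counts in each tissue. In brain the prohormone T4 crosses the vessel wall through transporters and is turned into active T3 by type 2 deiodinase, which is made mainly by astrocytes. Type 3 deiodinase, made mainly by neurons, inactivates both hormones. T3 acts through nuclear receptors that repress target genes when unliganded and activate them when T3 binds.

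RNA was sequenced from poly(A)-selected libraries of dissected tissue of wild-type mice of the inbred C57/BL6 strain, aged 2 to 6 months. Male mice gave the prefrontal cortex samples. Of these, 4 had received lipopolysaccharide (LPS), an endotoxin of Gram-negative bacteria that sets off systemic inflammation, by the intraperitoneal route at 5 mg/kg, and 4 had received saline (0.9%). In the hippocampal samples 6 mice had received nicotine, a drug that activates acetylcholine-gated channels, at 0.2 mg/kg, and 6 had received saline of the same strength. Tissue was taken 24 hours after treatment. For the hippocampal mice the labels give neither sex nor injection route. Cortical libraries held 39871000 to 42924749 gene counts with LPS and 36371084 to 46106526 with saline. Hippocampal libraries held 53145736 to 62982229 with nicotine and 51969343 to 68196280 with saline. Each tissue was its own batch and table and was tested alone. In bulk tissue, fewer cells of a type and less RNA per cell cannot be told apart.

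For 4 of 8 cortical records the title and treatment field contradict the column name given for the same record, and the column names were followed. The column names give LPS for Samples 2L, 4L, 5L and 7L, and saline for Samples 1L, 3L, 6L and 8L. Levels are CPM, counts per 1000000 of a library's TMM-scaled total. Under the titles Dio2 ran from 89.0 to 227 CPM in the libraries called LPS and from 82.3 to 237 CPM in those called saline. All cortical results rest on the column names. Markers of cortical neurons summed to 2004 to 2396 CPM with LPS and 1734 to 2320 CPM with saline, and none of the 8 was at 0. Markers of hippocampal neurons summed to 644 to 754 CPM with nicotine and 565 to 822 CPM with saline in hippocampus, and none of the 7 was at 0. The same list summed to 241 to 390 CPM with LPS and 202 to 240 CPM with saline in cortex. The largest part there was Wfs1, with means of 244 CPM with LPS and 126 CPM with saline. Spink8 also had a higher mean with LPS. Neurod6 (45.6 CPM with LPS, 62.3 CPM with saline), Dsp, Fibcd1, C1ql2 and Prox1 had lower means with LPS. The cortical list summed to 1717 to 2056 CPM with nicotine and 1295 to 1941 CPM with saline in hippocampus, so its sum does not tell the tissues apart.

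Promoter sequence is shown for the opposed deiodinase genes, since Dio2 was the member that passed the test and Dio3 encodes the enzyme that works against it. RefSeq windows (build GRCm38.p6) matched 4 of the 7 members, Dio2, Dio3, Thrb and Thrsp. The 250 bases before the annotated start are given 5′ to 3′ on the strand of the gene, at chr12:90739039-90739288 (minus strand) for Dio2 and at chr12:110278980-110279229 (plus strand) for Dio3. Capitals mark the cAMP response element TGACGTCA, which is the same on either strand, and the TATA box letters TATAAA.
Dio2: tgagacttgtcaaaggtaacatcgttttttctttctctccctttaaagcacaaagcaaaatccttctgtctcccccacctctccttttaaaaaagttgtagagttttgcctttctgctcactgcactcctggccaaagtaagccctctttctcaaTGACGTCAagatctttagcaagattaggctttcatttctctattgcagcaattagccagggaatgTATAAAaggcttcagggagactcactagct
Dio3: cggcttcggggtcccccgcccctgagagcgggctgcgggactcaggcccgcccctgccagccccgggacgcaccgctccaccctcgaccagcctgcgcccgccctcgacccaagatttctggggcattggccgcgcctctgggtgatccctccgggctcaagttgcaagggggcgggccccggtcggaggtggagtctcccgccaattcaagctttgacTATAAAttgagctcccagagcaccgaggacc
The Dio2 window held the cAMP response element at positions -95 to -88 from the start and TATAAA at -30 to -25, and these do not overlap. This RefSeq start lies upstream of the GENCODE span of Dio2 given below, while the Dio3 window runs into the GENCODE span of Dio3, so that its TATAAA lies inside the annotated gene. The Dio3 window held TATAAA at -31 to -26 and no match to the cAMP response element. Searched on either strand, the element was present in 1.55% and TATAAA in 12.4% of 32851 promoter windows of this length. These matches are descriptions of letters and say nothing of what was bound.

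In prefrontal cortex Dio2 rose with LPS and the other 6 members did not pass the test. Among pathway genes around them, the T4 transporter gene Slco1c1 fell steeply and the T3-responsive transcription factor gene Klf9 rose, but their lists moved both ways. Of 8 transporter genes tested 1 rose and 1 fell. Of 16 tested genes reported as raised by T3, 4 rose and 2 fell. The share of members called was 1 of 7, or 14.3%, where 41.2% of all 17760 genes tested were called. In the direction of Dio2, 21.5% of all genes were called higher with LPS, and 19.7% were called lower. LPS and saline ranges were separate for 3 of 7 members (42.9%), Dio2, Thra and Thrsp, against 37.1% of all genes. Calls are edgeR quasi-likelihood tests with Benjamini-Hochberg adjusted p under 0.05 over all genes tested.

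**Figure D1:**
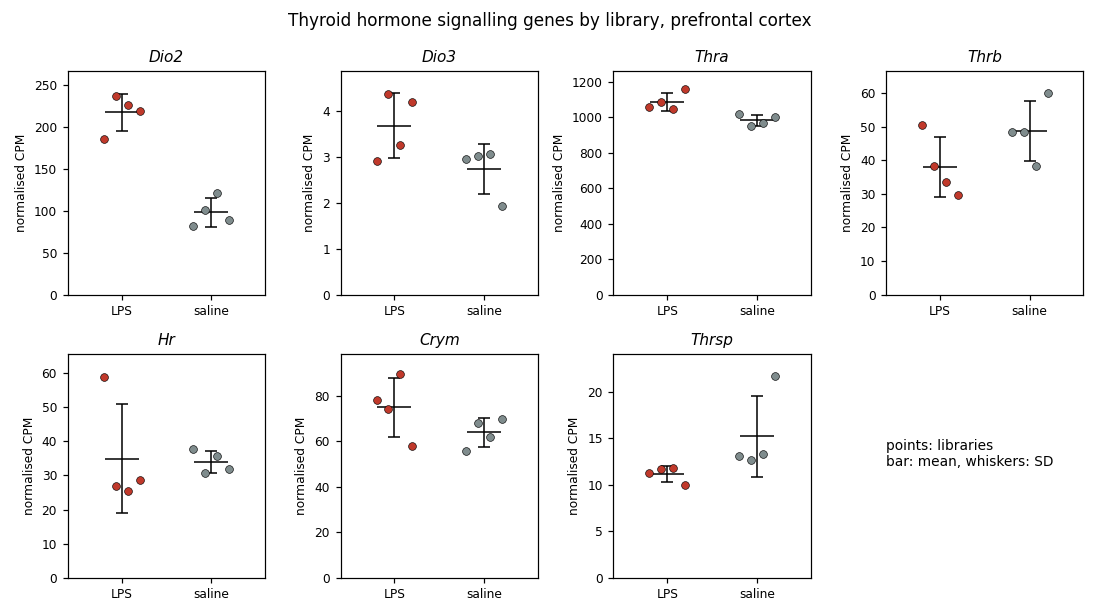
Normalised CPM of the 7 genes in each prefrontal cortex library, with LPS libraries on the left and saline libraries on the right of each panel (n = 4 each). Points are libraries, horizontal bars are means and whiskers are SD. All 4 LPS values of Dio2, 186 to 237 CPM, lie above the saline values of 82.3 to 122 CPM, and 1 LPS library stands alone at 58.7 CPM of Hr.

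Dio2 encodes type 2 deiodinase, which makes T3 from T4 (chromosome 12, 90724552 to 90738438, mm10, minus strand). It stood at 186 CPM in Sample 2L, 237 in 4L, 227 in 5L and 220 in 7L with LPS, against 82.3 in 1L, 101 in 3L, 122 in 6L and 89.0 in 8L with saline. Every LPS library was above every saline library. The means were 218 ± 22.1 CPM with LPS and 98.6 ± 17.3 CPM with saline (SD, n = 4 each), a log2 fold change of 1.14 (SE 0.12, 95% interval 0.88 to 1.40, edgeR adjusted p = 4.12e-05). Leaving out single libraries gave 1.06 to 1.25, and the 4 libraries whose labels agree gave 1.27 (edgeR adjusted p = 0.000185). The lncRNA gene Gm26512 lies on the opposite strand and shares 100 exonic bases with Dio2, and its level was 3.23 ± 0.449 CPM with LPS and 3.17 ± 0.402 CPM with saline.

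Astrocyte markers, the genes of the cell type that makes most Dio2 in brain, moved in both directions beside it. Of 8 markers 2 rose, Gjb6 (log2 fold change 0.74) and Aldh1l1 (0.34), and 2 fell, Gja1 (-0.52) and S100b (-0.47). Their summed level was 3641 to 4659 CPM with LPS and 3920 to 4259 CPM with saline. Most of it came from Slc1a2 (means of 2945 CPM with LPS and 2625 CPM with saline) and Aldoc (772 and 853 CPM). Neither of these passed the test. Over all genes tested 21.5% were called higher and 19.7% lower. Per length, Dio2 stood at 0.0493 to 0.0680 of the astrocyte sum in LPS libraries and at 0.0231 to 0.0343 in saline libraries, without overlap. Tanycytes, glia of the hypothalamus rich in Dio2, had summed markers of 2.61 to 3.78 CPM with LPS and 4.18 to 6.59 CPM with saline. Of 2 tested markers 1 fell, the low-level gene Gpr50, at 0.544 CPM with LPS and 2.03 CPM with saline. The other, Scn7a (log2 fold change -0.23), did not pass. The part of either marker list in the Dio2 result was not tested.

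Dio3 encodes type 3 deiodinase, which inactivates T4 and T3 (chromosome 12, 110279068 to 110281097, plus strand). It was low, at 2.90 CPM in Sample 2L, 4.36 in 4L, 3.26 in 5L and 4.20 in 7L with LPS, against 2.95 in 1L, 3.02 in 3L, 3.06 in 6L and 1.92 in 8L with saline. The groups overlapped, with LPS Sample 2L below 3 saline libraries. Its log2 fold change was 0.43 (SE 0.21, 95% interval -0.03 to 0.88, edgeR adjusted p = 0.120), and without Sample 2L it was 0.52 and passed (edgeR adjusted p = 0.0498). The gene rests on 597 counts over the LPS group and 453 over the saline group.

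The balance of the activating to the inactivating gene was higher in every LPS library. The ratio of Dio2 to Dio3 in RPKM (CPM per kilobase of exon) was 22.4 in Sample 2L, 19.0 in 4L, 24.3 in 5L and 18.3 in 7L with LPS, against 9.74 in 1L, 11.7 in 3L, 13.9 in 6L and 16.1 in 8L with saline. The groups did not overlap, as they already did not for Dio2 alone. Sample 8L, the saline library nearest to LPS, was the one with the lowest Dio3. Without single libraries the mean log2 ratio was higher with LPS by 0.60 to 0.84. The log2 fold change of Dio2 itself was 1.06 to 1.25 in such fits. The third deiodinase gene, Dio1, had 0 counts in all 8 cortical libraries, which allows up to 0.0651 to 0.0825 CPM in a library.

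**Figure D2:**
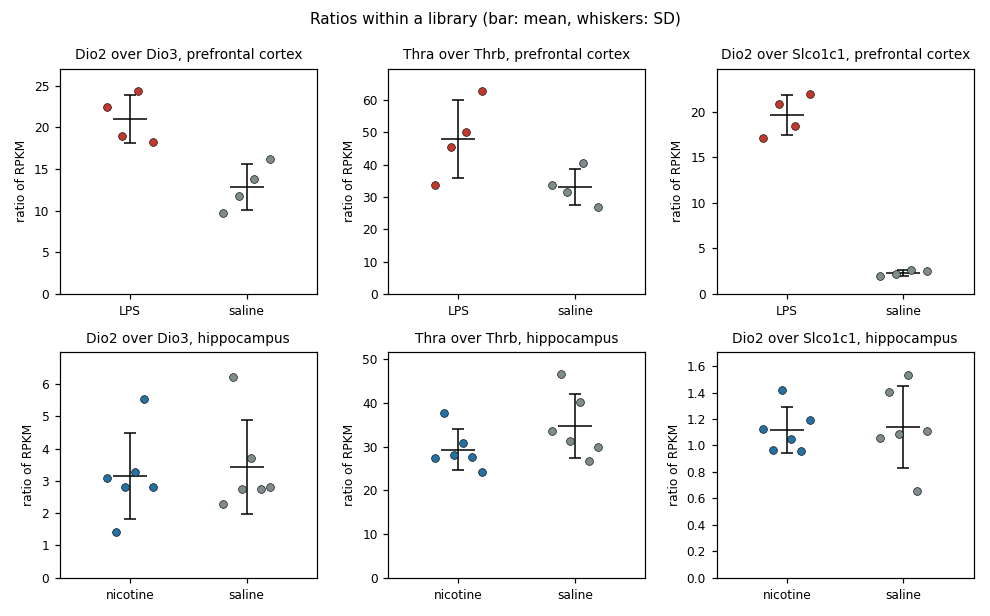
Ratios of length-normalised levels within each library for Dio2 to Dio3, Thra to Thrb and Dio2 to Slco1c1, in prefrontal cortex (upper row, LPS then saline) and hippocampus (lower row, nicotine then saline). Points are libraries, bars are means and whiskers are SD. Dio2 to Slco1c1 stood at 17.2 to 21.9 with LPS and at 1.96 to 2.59 with saline, while the hippocampal groups overlap in each panel.

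Thra encodes the receptor TRα, the main thyroid hormone receptor of brain (chromosome 11, 98740638 to 98769006, plus strand). Its level was 1057 CPM in Sample 2L, 1085 in 4L, 1045 in 5L and 1159 in 7L with LPS, against 1016 in 1L, 950 in 3L, 967 in 6L and 1005 in 8L with saline. The LPS values all lay above the saline values, by a narrow margin. The log2 fold change of 0.14 (SE 0.06, 95% interval 0.01 to 0.27) missed the threshold (edgeR adjusted p = 0.0791), and it passed with striatal markers as a covariate (0.16, edgeR adjusted p = 0.0294). The 3′ end of Thra shares 263 exonic bases with Nr1d1 on the opposite strand, the gene of the clock repressor REV-ERBα. Nr1d1 rose to 181 ± 14.8 CPM with LPS, against 133 ± 19.1 CPM with saline (log2 fold change 0.45, SE 0.10, edgeR adjusted p = 0.00489). The strand setting of the counting is not given, so reads in those bases cannot be told apart between the genes.

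Thrb encodes the receptor TRβ, which in brain includes the isoform that senses hormone in the hypothalamus and pituitary (chromosome 14, 17660261 to 18038090, plus strand). It stood at 50.5 CPM in Sample 2L, 38.4 in 4L, 33.5 in 5L and 29.6 in 7L with LPS, against 48.4 in 1L, 48.4 in 3L, 38.4 in 6L and 60.2 in 8L with saline. Sample 2L was the highest LPS library and Sample 6L the lowest saline library, and the groups overlapped through them. The log2 fold change was -0.36 (SE 0.17, 95% interval -0.72 to -0.0007, edgeR adjusted p = 0.100). It passed without Sample 2L (-0.53, edgeR adjusted p = 0.00809), without Sample 6L (-0.47, edgeR adjusted p = 0.0486) and in the 4 libraries whose labels agree (-0.63, edgeR adjusted p = 0.00358). The ratio of Thra to Thrb per length was 33.6 to 62.7 with LPS and 26.8 to 40.4 with saline, with overlap.

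Hr encodes the corepressor hairless, which binds thyroid hormone receptors and is itself a well-known T3-induced gene in rodent brain (chromosome 14, 70552212 to 70573548, plus strand). Its level was 58.7 CPM in Sample 2L, 27.0 in 4L, 25.3 in 5L and 28.8 in 7L with LPS, against 37.7 in 1L, 30.8 in 3L, 35.6 in 6L and 31.9 in 8L with saline. A single library decided the comparison, since 3 LPS libraries were below all saline libraries and Sample 2L was above them all. The log2 fold change was 0.04 (SE 0.23, 95% interval -0.46 to 0.54, edgeR adjusted p = 0.904) with Sample 2L and -0.33 (edgeR adjusted p = 0.0126) without it.

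Crym encodes µ-crystallin, a cytosolic protein that binds T3 and depends on NADPH (chromosome 7, 120186380 to 120202111, minus strand). It stood at 78.3 CPM in Sample 2L, 74.3 in 4L, 89.3 in 5L and 58.1 in 7L with LPS, against 55.7 in 1L, 68.0 in 3L, 61.9 in 6L and 69.9 in 8L with saline. Sample 7L lay below 3 saline libraries and the other LPS libraries lay above all 4. This gave a log2 fold change of 0.23 (SE 0.12, 95% interval -0.03 to 0.49, edgeR adjusted p = 0.144), and 0.33 without Sample 7L (edgeR adjusted p = 0.0224). Crym is also strong in striatum, and markers of that neighbouring region summed to 472 to 2025 CPM with LPS and 374 to 1588 CPM with saline. Among LPS libraries the sum was lowest in Sample 7L and highest in Sample 5L. Among saline libraries it was lowest in Sample 1L, which was also lowest in Crym. It was highest in Sample 6L, where Crym was below Samples 3L and 8L. With these markers as a covariate the log2 fold change of Crym was 0.16 (edgeR adjusted p = 0.202). Beyond this fit, the part of striatal tissue in the Crym result was not tested.

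Thrsp encodes Spot 14, a T3-induced regulator of lipid synthesis first described in liver (chromosome 7, 97412938 to 97417730, minus strand). It stood at 11.3 CPM in Sample 2L, 11.7 in 4L, 11.8 in 5L and 9.93 in 7L with LPS, against 13.1 in 1L, 12.7 in 3L, 13.3 in 6L and 21.7 in 8L with saline. Every LPS library was below every saline library, but Samples 1L, 3L and 6L lay just above the LPS range and Sample 8L stood far above it. The log2 fold change was -0.44 (SE 0.17, 95% interval -0.81 to -0.08, edgeR adjusted p = 0.0533). It was -0.23 without Sample 8L (edgeR adjusted p = 0.147), and it passed without Sample 3L (-0.53, edgeR adjusted p = 0.0418) and with DESeq2 (-0.45, DESeq2 adjusted p = 0.0326).

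**Figure D3:**
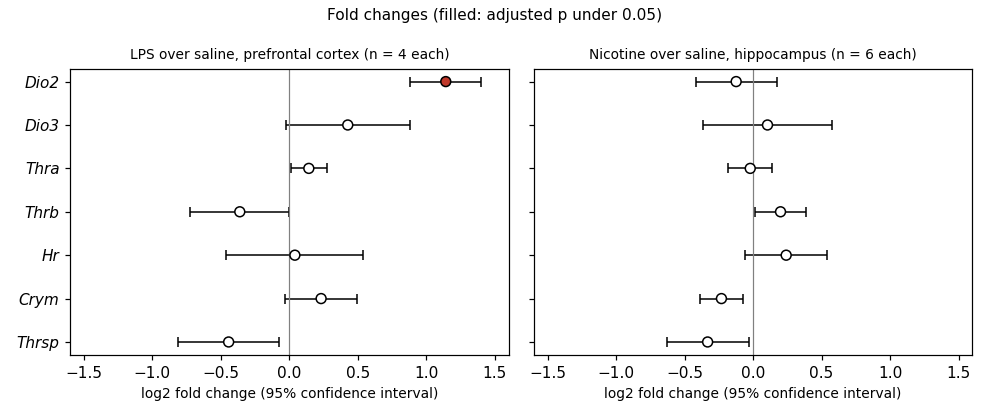
Log2 fold changes with 95% confidence intervals for the 7 genes, LPS over saline in prefrontal cortex on the left and nicotine over saline in hippocampus on the right. Filled circles mark an edgeR adjusted p under 0.05. Only Dio2 in prefrontal cortex, at 1.14, is filled.

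Hormone transporters moved in both directions with LPS. Of 8 tested genes 1 rose and 1 fell, with a median log2 fold change of -0.14, beside 0.01 over all genes tested. Without Sample 2L 2 were called higher and 3 lower. In the main analysis 21.5% of all genes tested were called higher and 19.7% lower. Slco1c1, whose product OATP1C1 carries T4 into brain at endothelium and astrocytes, stood at 9.67 CPM in Sample 2L, 10.1 in 4L, 11.0 in 5L and 8.93 in 7L with LPS, against 37.4 in 1L, 41.9 in 3L, 41.8 in 6L and 31.8 in 8L with saline. That is a log2 fold change of -1.95 (SE 0.11, edgeR adjusted p = 7.07e-07) with no overlap. Slc7a8, encoding the amino acid transporter LAT2, which also carries thyroid hormone, rose to 128 ± 3.68 CPM with LPS, against 90.2 ± 10.9 CPM with saline (0.51, SE 0.09, edgeR adjusted p = 0.000837). Slco1a4, another endothelial organic anion transporter gene, split the LPS libraries, with 26.6 CPM in Sample 2L and 5.97 to 15.7 CPM in the others, against 19.9 to 29.1 CPM with saline (edgeR adjusted p = 0.0851). Slc3a2, the heavy chain of LAT1 and LAT2, stood at 139 ± 9.38 CPM with LPS and 122 ± 6.31 CPM with saline (edgeR adjusted p = 0.0605).

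Endothelial markers moved in both directions. Of 6 markers 3 rose, Cdh5 (log2 fold change 1.34), Cldn5 (0.39) and Ly6c1 (0.82), and 1 fell, Tek (-1.44). Their sum was 191 to 216 CPM with LPS and 141 to 174 CPM with saline, and their part in the fall of Slco1c1 was not tested. Calls over all genes tested were 21.5% higher and 19.7% lower. The ratio of Dio2 to Slco1c1 per length was 17.2 in Sample 2L, 20.9 in 4L, 18.4 in 5L and 21.9 in 7L with LPS, against 1.96 in 1L, 2.16 in 3L, 2.59 in 6L and 2.50 in 8L with saline. Within each library this ratio does not depend on the scaling between libraries. Both genes are expressed in astrocytes, but Slco1c1 also at endothelium, so the ratio mixes cell types. The part of each cell type was not tested.

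Thyroid hormone receptors bind DNA with retinoid X receptors and recruit corepressors or coactivators. Of 17 tested genes of this list 6 rose and 0 fell, with a median log2 fold change of 0.16 beside 0.01 over all genes. Of all genes tested 21.5% were called higher and 19.7% lower, and with striatal markers as a covariate 1 gene of the list was called lower. Ncoa1, the steroid receptor coactivator 1, rose to 201 ± 10.1 CPM with LPS, against 144 ± 9.75 CPM with saline (0.48, SE 0.07, edgeR adjusted p = 0.000335). The corepressor complex genes Tbl1xr1 (0.41, SE 0.07) and Gps2 (0.64, SE 0.12) and the acetyltransferase gene Crebbp (0.38, SE 0.09) rose, as did Rxra (0.38) and Rxrb (0.28). The corepressor gene Ncor1 (0.05), whose product binds the unliganded receptor, did not pass.

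Among genes that make or turn over deiodinases, 3 of 10 tested rose and 1 fell, with a median log2 fold change of 0.03. Over all genes tested 41.2% were called, 21.5% higher and 19.7% lower. Deiodinases contain selenocysteine, and Eefsec, the elongation factor that delivers it, fell to 13.1 ± 2.10 CPM with LPS, against 19.8 ± 1.28 CPM with saline (-0.59, SE 0.12, edgeR adjusted p = 0.00262). Trnau1ap (0.37, SE 0.09) and Sephs2 (0.39, SE 0.11), which serve selenocysteine tRNA and selenophosphate, rose. Marchf6, the ubiquitin ligase TEB4 that marks type 2 deiodinase for degradation, rose to 258 ± 10.0 CPM with LPS, against 219 ± 13.8 CPM with saline (0.24, SE 0.07, edgeR adjusted p = 0.0142). Of 6 tested genes of hormone carriers and the thyroid axis 1 fell, the integrin gene Itgav (-0.45, SE 0.08, edgeR adjusted p = 0.00100), and the median was -0.49. The count lower was 2 without Sample 1L, without Sample 2L and without Sample 7L. The hormone genes and receptors Trh (-0.79, edgeR adjusted p = 0.141), Trhr (-0.65, edgeR adjusted p = 0.0593) and Tshr (-0.54, edgeR adjusted p = 0.231) did not pass.

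**Figure D4:**
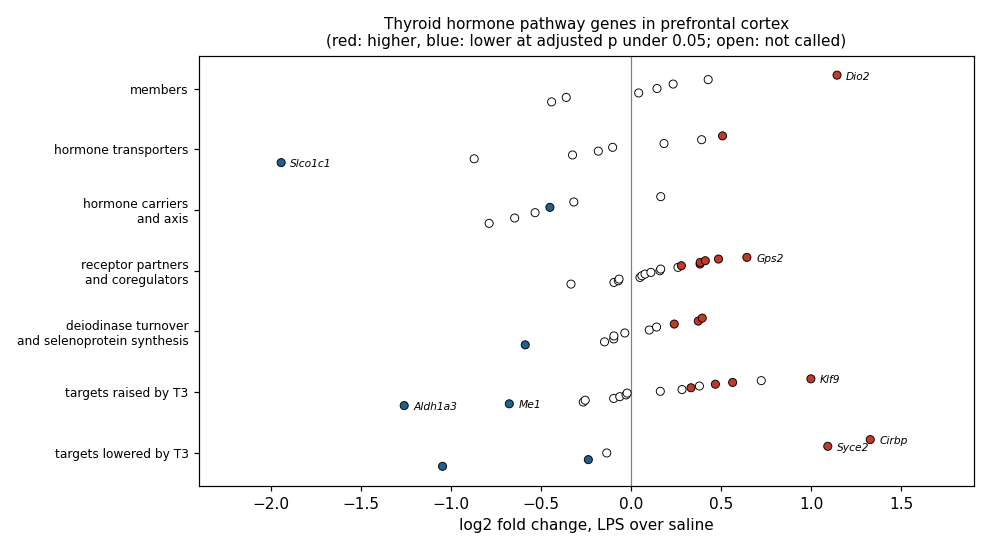
Log2 fold changes with LPS over saline in prefrontal cortex for each tested gene of the 7 members and of 6 lists of thyroid hormone pathway genes. Red points are higher and blue points lower at an edgeR adjusted p under 0.05, and open points were not called. Slco1c1 at -1.95 and Cirbp at 1.33 lie furthest from 0.

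Genes reported to respond to T3 in rodent brain or liver did not move 1 way. Of 16 tested genes reported as raised by T3, 4 rose and 2 fell, with a median log2 fold change of 0.07 beside 0.01 over all genes. Calls over all genes tested were 21.5% higher and 19.7% lower. Klf9, a Krüppel-like factor induced by T3 and also by glucocorticoids, stood at 420 CPM in Sample 2L, 469 in 4L, 534 in 5L and 463 in 7L with LPS, against 225 in 1L, 219 in 3L, 248 in 6L and 253 in 8L with saline. That is a log2 fold change of 1.00 (SE 0.08, edgeR adjusted p = 9.06e-06), with no overlap. The calcium-dependent kinase gene Camk4 (0.56, SE 0.13) rose, while Me1, malic enzyme, fell to 35.7 ± 3.29 CPM with LPS, against 57.1 ± 3.51 CPM with saline (-0.68, SE 0.09). The retinoic acid synthesis gene Aldh1a3 also fell (-1.26, SE 0.35, edgeR adjusted p = 0.0136). The count of risers was 2 without LPS Sample 4L and 6 without LPS Sample 7L. The myelin genes Mbp (-0.03) and Mag (-0.10) did not pass, while 5 of 8 oligodendrocyte markers fell, with sums of 445 to 622 CPM with LPS and 682 to 822 CPM with saline.

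Of 5 tested genes reported as lowered by T3, 2 rose and 2 fell, with a median of -0.14. Over all genes tested 21.5% were called higher and 19.7% lower. Cirbp, the cold-inducible RNA-binding protein gene, stood at 125 to 174 CPM with LPS and 48.8 to 70.7 CPM with saline (1.33, SE 0.12, edgeR adjusted p = 2.03e-05). Syce2, a meiotic chromosome protein gene, rose to 3.01 ± 0.234 CPM with LPS, against 1.42 ± 0.327 CPM with saline. Slc1a3, the astrocyte glutamate transporter GLAST, was among those that fell (-0.24, SE 0.07, edgeR adjusted p = 0.0131).

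In hippocampus no member passed the test 24 hours after nicotine. With edgeR 0 of 7 members and 0% of 18873 genes were called, and 1577 genes had an unadjusted p under 0.05, among them the members Crym, Thrsp and Thrb. limma-voom also called 0 genes, and DESeq2 called 15, none of them a member. The ranges of the groups overlapped for all 7 members, where they did not overlap for 0.387% of all genes. The 6 pathway lists also had 0 genes called.

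**Figure D5:**
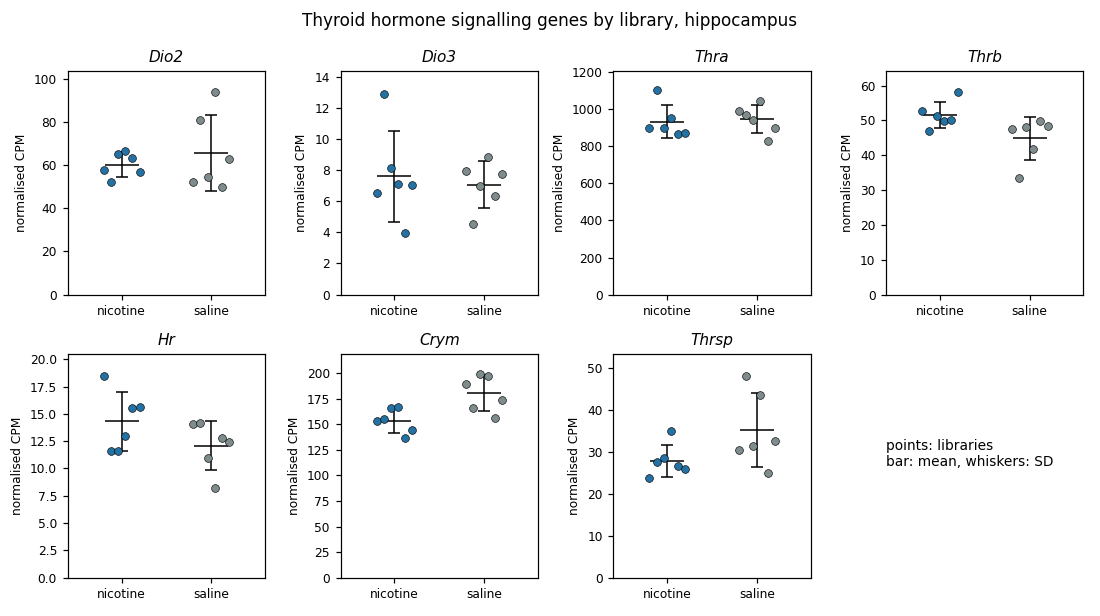
Normalised CPM of the 7 genes in each hippocampal library, with nicotine libraries on the left and saline libraries on the right of each panel (n = 6 each). Points are libraries, horizontal bars are means and whiskers are SD. The groups overlap in every panel, and Crym has 136 to 167 CPM with nicotine and 156 to 199 CPM with saline.

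Crym had the smallest p of the members. It ran from 136 CPM through a median of 154 to 167 with nicotine, and from 156 through 182 to 199 with saline. The means were 154 ± 11.9 CPM with nicotine and 180 ± 17.6 CPM with saline (SD, n = 6 each), a log2 fold change of -0.23 (SE 0.07, 95% interval -0.39 to -0.08, edgeR adjusted p = 0.555). Thrsp had 23.8, 27.2 and 35.0 CPM with nicotine and 24.9, 32.0 and 48.3 CPM with saline as lowest, median and highest values (-0.33, SE 0.14, edgeR adjusted p = 0.580). Its highest saline values, in Samples 2N and 4N, were above all nicotine libraries. Thrb had 47.0, 50.7 and 58.2 CPM with nicotine and 33.5, 47.9 and 49.8 CPM with saline (0.20, SE 0.09, edgeR adjusted p = 0.580).

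The deiodinase genes differed less between treatments than between libraries of a group. Dio2 had 52.2, 60.4 and 66.7 CPM with nicotine and 50.0, 58.6 and 93.8 CPM with saline as lowest, median and highest values (-0.12, SE 0.14, 95% interval -0.42 to 0.17, edgeR adjusted p = 0.813). Its highest values, 80.9 and 93.8 CPM, were in saline Samples 2N and 4N, the libraries that were also highest for Thrsp and lowest for Thrb, at 33.5 and 41.8 CPM. Of the saline libraries, Sample 2N had the highest summed astrocyte (4975 CPM), oligodendrocyte (1542) and microglia (481) markers. It had the lowest hippocampal (565) and cortical (1295) neuron sums. Sample 4N had the lowest oligodendrocyte sum, at 524 CPM. The part of cell make-up in these values was not tested. Dio3 had 3.98, 7.08 and 12.9 CPM with nicotine and 4.54, 7.36 and 8.82 CPM with saline (0.11, SE 0.22, 95% interval -0.37 to 0.58, edgeR adjusted p = 0.913), and its highest value was in nicotine Sample 8N. The ratio of Dio2 to Dio3 per length was 1.42 to 5.54 with nicotine and 2.29 to 6.22 with saline. Dio1 had 4 counts over the nicotine group and 2 over the saline group.

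Thra had 866, 900 and 1105 CPM with nicotine and 828.7, 957 and 1045 CPM with saline (-0.02, SE 0.08, 95% interval -0.18 to 0.14, edgeR adjusted p = 0.955). Hr had 11.6, 14.3 and 18.4 CPM with nicotine and 8.17, 12.6 and 14.1 CPM with saline (0.24, SE 0.14, 95% interval -0.06 to 0.54, edgeR adjusted p = 0.643). Slco1c1, far lower with LPS in cortex, stood at 48.8 ± 7.38 CPM with nicotine and 52.2 ± 8.68 CPM with saline in hippocampus. Klf9 stood at 215 ± 14.5 CPM with nicotine and 206 ± 14.2 CPM with saline. Carry-over of choroid plexus, which makes the T4 carrier transthyretin, differed between hippocampal libraries, with its markers summing to 62.0 to 2428 CPM with nicotine and 44.5 to 4127 CPM with saline. With these markers as a covariate 0 members were called, and Dio2 had a log2 fold change of -0.12.

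Per length, Thra was the most abundant member in each group, with 235 ± 11.1 RPKM with LPS and 213 ± 6.72 RPKM with saline in cortex, and 202 ± 19.4 RPKM with nicotine and 205 ± 16.4 RPKM with saline in hippocampus. In cortex Dio2 was the next member with LPS, at 37.4 ± 3.79 RPKM, above Crym at 22.1 ± 3.82 RPKM. With saline Crym at 18.8 ± 1.89 RPKM and Dio2 at 17.0 ± 2.97 RPKM overlapped. Thrb, Thrsp and Hr had means of 5.05 to 5.13 RPKM with LPS and 4.91 to 6.95 RPKM with saline, each overlapping its neighbour in the order. Their single libraries ran from 3.66 to 8.49 RPKM with LPS and from 4.46 to 9.91 RPKM with saline. Dio3 was lowest at 1.81 ± 0.350 RPKM with LPS and 1.35 ± 0.268 RPKM with saline. In hippocampus Crym came after Thra, at 45.3 ± 3.51 RPKM with nicotine and 53.1 ± 5.19 RPKM with saline, followed by Thrsp, Dio2, Thrb, Dio3 and Hr in either group. Thrsp and Dio2 overlapped in either group, and Dio3 and Hr overlapped with nicotine. Hr was the lowest there, at 2.07 ± 0.391 RPKM with nicotine and 1.75 ± 0.325 RPKM with saline. The tables were scaled separately, so levels were not tested between tissues.

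Genes whose deviations from their group means over the 12 hippocampal libraries were most like those of a member are given as a description, without a test. Among 14893 genes the closest to Dio2 were Paqr8 (Pearson r 0.913), Cables1 (0.911) and Gm45774 (0.884). Those closest to Thrsp were Crot (0.966), Cops9 (0.927) and Egln1 (0.922), and Dio2 and Thrsp themselves had an r of 0.859. Thra was closest to Fbxl16 (0.980), Epn1 (0.958) and Wdtc1 (0.954), and Thrb to Nceh1 (0.958), Ptprn2 (0.948) and Galnt18 (0.941). Dio3 was closest to Myo16 (0.927), Rab2b (0.920) and Cpne7 (0.916). Hr was closest to Fgf22 (0.925), Dusp16 (0.912) and Rtkn (0.903), and Crym to Lhfpl1 (0.895), 2900097C17Rik (0.876) and Kcnip2 (0.859). Libraries share depth and dissection in these values, and high values of r arise among this many genes over so few libraries.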

How the data were processed

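TRIzol extracts were sequenced as poly(A)-selected libraries, per the labels' protocols. The values the authors deposited are raw counts, 1 column per library. The tools fastp, STAR, featureCounts and DESeq2 and build mm10 are named without roles or versions, per the submitters' processing notes. Which annotation and strand setting were used is not given in the sources used here. Of 57180 hippocampal Ensembl identifiers, 51884 were matched to a mouse symbol in a reference list of gene names. GENCODE vM21 gave positions and exon lengths.

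The members and lists were chosen with earlier results of these data known. For each tissue separately, edgeR 4.0.16 (R 4.3.3) was run with TMM, filterByExpr and its quasi-likelihood test, and p-values were adjusted over all genes. Alternatives were DESeq2 1.42.0, limma-voom (limma 3.58.1), other scaling factors and filters, single libraries left out, a replicate block, marker covariates and other groupings of the cortical records. Fits were tested on simulated counts. No pair of libraries of a group agreed within sampling noise (lowest chi-square per degree of freedom 11.0). The labels call the libraries biological replicates without naming animals. The median 95% interval of a log2 fold change reached 0.29 to each side in cortex and 0.22 in hippocampus. Limits from counts of 0 cover counting error only. Named genes were the members, up to 4 genes with the smallest p per list, genes overlapping a member, and the 3 genes most like each member. Rxra, Rxrb, Ncor1, Mbp, Mag and the marker genes, and the hippocampal values of Slco1c1 and Klf9, were added after their values were seen. Some genes of the lists are counted but not reported by name here.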

Additional observations from a re-analysis of the deposited data

Results flagged for a closer look

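Within groups of 4 or 6 libraries, the test for a highest or lowest library was run on the members in both tissues, on the 4 genes with the smallest p per list and the genes overlapping a member in prefrontal cortex, and on Slco1c1 and Klf9 in hippocampus. Other genes were not tested for this. A library stood apart from the others (Dixon's test at 95%) in 4 cases, where chance gives about 1 in 20 groups. Several such cases arise by chance among this many groups, and these 4 were not told apart from chance. Hr was 58.7 CPM in LPS Sample 2L and 25.3 to 28.8 CPM in the other LPS libraries of prefrontal cortex. Saline Sample 8L stood apart for a pair of members, with Thrsp at 21.7 CPM, against 12.7 to 13.3 CPM in the other saline libraries, and Dio3 at 1.92 CPM, against 2.95 to 3.06 CPM. In hippocampus Thra was 1105 CPM in nicotine Sample 8N and 866 to 955 CPM in the other nicotine libraries.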

How the results depend on the processing

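Dio2 stayed higher with LPS and past the threshold under every alternative that kept the column-name groups, with log2 fold changes of 1.06 to 1.27. Grouped by title, 0 members and 0 genes were called, Dio2 had 0.11, and Dio3 (-0.089), Hr (-0.34) and Thrsp (0.22) changed sign. The count of members higher with LPS, 1 in the main analysis, was 2 with the striatal covariate and 1 to 2 without single libraries. The count lower, 0 in the main analysis, was 1 with DESeq2, upper-quartile factors, the 1 CPM filter or the 4 libraries whose labels agree, 2 with no filter, and 0 to 2 without single libraries. Hr had -0.046 with limma-voom, -0.048 with the replicate block, -0.0047 with the striatal covariate, -0.35 in the 4 agreeing libraries and -0.33 to 0.16 without single libraries. The cause was not tested. In hippocampus 15 genes were called with DESeq2, 1 without the 4 libraries above 1000 CPM of Ttr and 0 to 1 without single libraries, and no member in any of them. Without single libraries Dio2 ran from -0.19 to 0.0056, Thra from -0.072 to 0.0096 and Dio3 from -0.11 to 0.24. With the title's replicate number as a replicate block 6064 genes were called in prefrontal cortex and 0 in hippocampus, and no call of a member changed. Same-numbered libraries deviated together with r of -0.16 to -0.03 in cortex and -0.17 to 0.44 in hippocampus, and 0 of 8 and 2 of 12 libraries were closest to their own number, so the numbers were not taken to pair animals. Among list counts in cortex, transporters lower, 1 in the main analysis, were 2 with limma-voom or no filter and 3 in the 4 agreeing libraries. Carrier and axis genes lower, 1 in the main analysis, were 2 with DESeq2, no filter, the striatal covariate or the 4 agreeing libraries. In those 4 libraries 1 gene of deiodinase turnover was called higher and 1 target lowered by T3 was called lower. The SE of Dio3 was 0.21 in cortex on 597 and 453 counts, and 0.22 in hippocampus on 2616 and 2491 counts.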
